A study of Rattus norvegicus with 12 samples.

Results

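The 63 genes described here were chosen by name as genes of the centriole and the cilium, and some of them also act elsewhere. They are the genes read by a probe set with exactly 1 annotated symbol that starts with Cep, Ift, Bbs or Cfap and a digit, together with Poc1a, Plk4, Sass6, Cetn2, Cetn3 and Ofd1. They make up 63 of the 14506 named genes on the array and 64 of its 29214 probe sets, since only Cep112 has 2. Poc1b, Poc5, Stil and Arl13b were also sought by name and were not found under those names. Where a gene had several sets, the one with the highest mean intensity was used.

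Their RNA was measured in whole ganglionic eminences, the ventral forebrain swellings from which the striatum arises, of 12 rat embryos at embryonic day 14. The groups were 6 embryos homozygous for BACHD, written BACHD+/+, and 6 wild type (WT) embryos. BACHD is a transgene that carries the full-length human mutant huntingtin gene, with 96 CAG repeats, on a bacterial artificial chromosome, beside the rat gene that both groups have. The embryos of 3 time-bred transgenic dams were taken on a single day, and 1 embryo gave the RNA of 1 array. Which embryo had which dam or sex, the founder line and the promoter of the transgene are not in the labels. The study asked which transcripts differ early in transgenic embryos. Values are log2 intensities of Affymetrix rat Gene 1.0 ST arrays, and every difference below is homozygous minus wild type on that log2 scale.

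As background, a centriole is a short barrel of microtubules that is copied once in each cell cycle, starting from the kinase Plk4 and the Sass6 cartwheel. When a cell leaves division, the older centriole docks at the membrane as a basal body and grows a primary cilium, the antenna in which Hedgehog signals are received in the ventral forebrain. Intraflagellar transport (IFT) moves cargo along the cilium. In it, the IFT-B complex works with kinesin toward the tip, the IFT-A complex works with dynein on the way back, and the BBSome, built from Bbs proteins, carries membrane proteins out. Cfap proteins take their name from cilia and flagella, and many of them belong to the motile axoneme. Radial glia of the eminences carry primary cilia, whereas motile cilia belong to ependyma and choroid plexus.

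The arrays correlated with each other at 0.994 to 0.998 across probe sets. Their medians lay between 7.69 and 7.76 in homozygous arrays and between 7.67 and 7.71 in wild-type arrays. Htt had 10.16 to 10.40 in homozygous arrays, against 9.77 to 10.07 in wild-type arrays, a difference of 0.30 with an adjusted p of 0.0408 in limma. When single arrays were left out, Htt differed by 0.26 to 0.32 and was called only without wild type 3, with adjusted p-values up to 0.0864. Wild type 1 and 2 stood apart from the other 10 arrays on the first principal component. Without them, the difference of 16 of the 63 genes changed sign, none of them called in either fit, and the values that moved most are given with and without them. The 8 measured eminence markers averaged 11.04 to 11.19 in homozygous arrays and 11.02 to 11.17 in wild-type arrays. Of the 8, 4 were above 0 and 4 below, and none passed the adjusted test. Nkx2-1 at 0.16 and Dlx5 at -0.18 had an unadjusted p under 0.05 in limma (25%, against 15.1% of all genes). The groups did not overlap in 1 marker, Nkx2-1 (12.5%, against 2.20% of all genes). The 6 measured choroid plexus markers averaged 6.21 to 6.54 in homozygous arrays and 6.28 to 6.42 in wild-type arrays. In bulk tissue, fewer cells of a type and less RNA per cell cannot be told apart.

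Many ciliary genes are switched on by RFX factors, which bind a DNA palindrome called the X-box. It was searched as GTTNCC, any 2 bases and GGNAAC, where N is any base, which reads the same on both strands, in the RefSeq promoters of the assembly GRCr8 from 250 bases before to 50 after each gene start. A promoter was at hand for 55 of the 63 genes. With at most 1 of the 10 fixed letters changed, 10 of the 55 promoters held a match (18.2%), against 313 of the 11951 promoters of all genes on the array (2.62%). With no change allowed, 0 of the 55 held one, against 0.435% of all. With 2 changes allowed, 20 did (36.4%), against 14.2% of all. A match is a string of letters and does not show that a factor binds there. The 11 matches in the 10 promoters are shown because they mark the genes of this set with a candidate RFX element, 30 bases each, with the 14 letters of the match in capitals and positions counted from the first transcribed base as 0.
Ift70b, chr3:81265643-81265672 (minus strand), first base of the match at -19: gttggcccATTGCCTTGGAAACgaggatgc
Ift70a2, chr3:81308886-81308915 (minus strand), first base of the match at -11: gttggcttGTGGCCTTGGAAACaagcacac
Ift172, chr6:30801954-30801983 (plus strand), first base of the match at 18: cttggcggGTTGTCCAGGTAACcgtgggag
Ift22, chr12:25405496-25405525 (minus strand), first base of the match at -7: tgttcccgGTCGCCGTGGAAACcgatcagc
Ift56, chr4:68057576-68057605 (plus strand), first base of the match at 4: ccggcggcGTTGCCGTGGAGACggagctct
Cep19, chr11:82192021-82192050 (minus strand), first base of the match at -10: gccccgctGTTGCCTAGAGAACgatctttg
Cep83, chr7:31167345-31167374 (plus strand), first base of the match at -14: ccctccgaGTTTCCCGGGCTACctcaacct
Cep112, chr10:93865527-93865556 (plus strand), first base of the match at -164: gctagacaGTTACCATAGCAACggagctgc
Cep112, chr10:93865682-93865711 (plus strand), first base of the match at -9: cccggggcGTCGCCATGGCAACagagttga
Bbs7, chr2:121402586-121402615 (minus strand), first base of the match at -134: gcgtcttgGTTGGCCTGGAAACcggctgta
Cfap45, chr13:87521810-87521839 (plus strand), first base of the match at -13: gggtcttgGTTGCTGTGGTAACgcgtcagc

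The matches lay close to the gene starts. The first base of 9 of the 11 was within 50 bases of the start (81.8%), against 101 of 319 matches in other genes (31.7%). By role, 5 of 13 IFT promoters held a match, as did 2 of 11 promoters of basal body genes, 1 of 5 Bbs, 1 of 10 Cfap and 1 of 7 promoters of the remaining Cep genes. None of the 9 promoters of centriole assembly genes did. In Ift70b, Ift70a2, Ift22 and Bbs7 the right arm of the palindrome read GGAAAC and the 1 changed letter lay in the left arm.

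**Figure D1:**
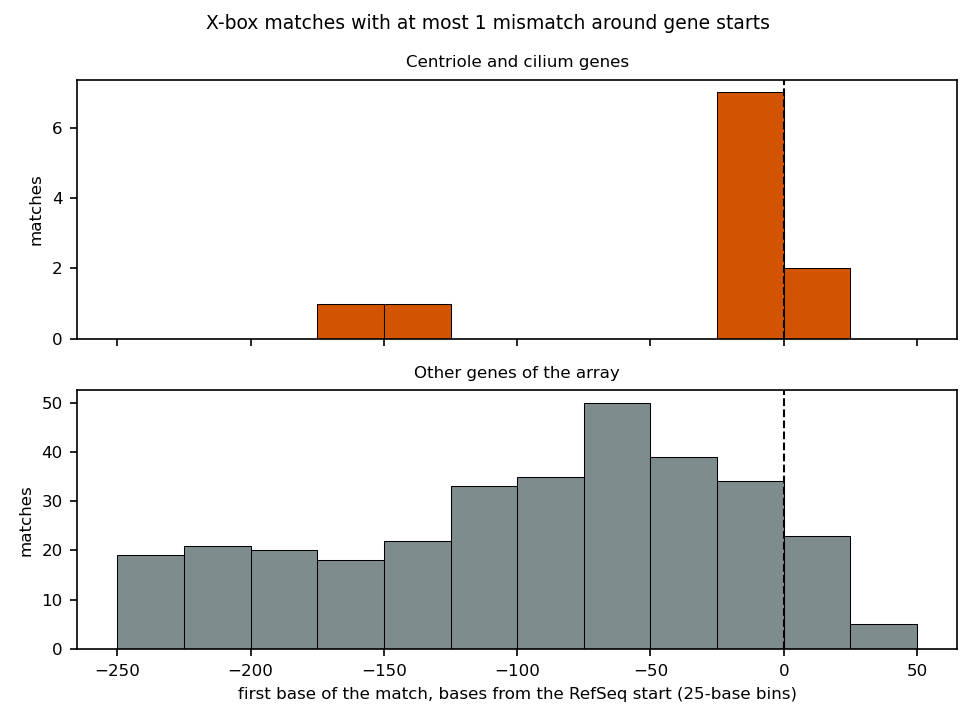
Number of X-box matches with at most 1 changed letter in 25-base bins along the promoter, by the position of the first base of the match from the gene start at 0, in the centriole and cilium genes (upper plot) and in the other genes of the array (lower plot). Of the 11 matches in these genes, 9 lie within 50 bases of the start, against 101 of 319 in other genes.

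Ift70b and Ift70a2 are nearby copies of the gene for an IFT-B subunit, on the same strand of chromosome 3. Their promoters are printed because both copies hold the element, and their differences are given side by side with the other IFT genes. Those of Cfap36 and Poc1a are printed because these were the genes of the set that passed the test across all probe sets. Each runs from 250 bases before the start to the first 10 transcribed bases, with the X-box match in capitals.
Ift70b, chr3:81265636-81265895 (minus strand): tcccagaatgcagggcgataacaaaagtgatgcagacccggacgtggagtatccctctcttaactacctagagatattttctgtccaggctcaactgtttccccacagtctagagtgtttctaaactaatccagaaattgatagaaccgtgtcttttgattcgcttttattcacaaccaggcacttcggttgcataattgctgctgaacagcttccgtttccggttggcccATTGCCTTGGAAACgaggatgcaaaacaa
Ift70a2, chr3:81308887-81309146 (minus strand): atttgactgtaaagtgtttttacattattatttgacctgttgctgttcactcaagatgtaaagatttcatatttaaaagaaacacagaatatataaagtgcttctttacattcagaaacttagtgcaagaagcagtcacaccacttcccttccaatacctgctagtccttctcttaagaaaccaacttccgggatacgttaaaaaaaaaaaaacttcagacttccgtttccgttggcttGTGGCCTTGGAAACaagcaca
Cfap36, chr14:107192397-107192656 (minus strand): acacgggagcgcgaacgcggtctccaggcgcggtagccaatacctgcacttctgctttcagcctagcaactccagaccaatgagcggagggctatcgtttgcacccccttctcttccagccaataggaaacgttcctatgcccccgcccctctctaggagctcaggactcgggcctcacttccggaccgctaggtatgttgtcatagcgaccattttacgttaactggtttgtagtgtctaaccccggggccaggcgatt
Poc1a, chr8:115801146-115801405 (plus strand): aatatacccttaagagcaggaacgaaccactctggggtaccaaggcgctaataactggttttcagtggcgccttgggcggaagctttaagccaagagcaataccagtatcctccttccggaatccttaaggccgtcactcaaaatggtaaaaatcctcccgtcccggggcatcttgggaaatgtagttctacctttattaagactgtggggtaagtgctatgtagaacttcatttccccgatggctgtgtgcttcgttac
Over the 300-base windows, 170 of 280 aligned bases of the Ift70 pair were identical (60.7%), with 40 bases in gaps. No match with at most 1 changed letter was found in the windows of Cfap36 or Poc1a.

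Across the whole set, most genes differed little between homozygous and wild-type embryos. Cfap36 fell and Poc1a rose, and the other 61 did not pass the test (limma, adjusted p of 0.05 over all probe sets). This is 3.17% of the set, against 0.424% of all 29214 probe sets and 0.469% of the 14506 genes at their brightest set. By direction, the shares of all probe sets called were 0.226% higher and 0.199% lower, and those of all genes 0.200% higher and 0.269% lower. At an unadjusted p under 0.05, 2 of the 63 were higher and 9 lower. That is 17.5% in either direction, against 15.0% of all probe sets. The 9 lower ones make 14.3%, against 4.81% of all probe sets and 5.93% of all genes, and the 2 higher ones 3.17%, against 10.2% and 9.18%. These shares go with intensity, and 50 of the 63 genes lay at or above the median of all probe sets. Of these 50, 18% were lower and 4% higher, against 9.31% and 9.72% of all genes at or above that median. By the adjusted test, 4% of the 50 were called, against 0.769% of all genes there.

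The direction over the set was even. The difference was above 0 in 30 genes and below 0 in 33, with a median of -0.0014 that compares with 0.02 over all genes. Above 0 were 47.6% of the set, against 64.8% of all probe sets and 61.4% of all genes. Of the 50 at or above the median intensity, 42% were above 0, against 51.3% of all genes there. Of the 13 below it, 69.2% were, against 76.1% of all genes there. With each array centred on its median, the median was -0.04. At an unadjusted p under 0.05, 1 of the 63 genes was then higher and 13 of the 63 lower. The shares of all genes were 3.31% higher and 13.5% lower. Of the 63 differences, 51 were smaller than 0.1 in size. Among the 61 genes that did not pass, the 95% interval of 46 stayed within 0.2 on either side of 0, and that of 11 within 0.1. The homozygous and wild-type arrays did not overlap in 2 genes (3.17%), again Cfap36 and Poc1a, against 1.86% of all probe sets and 2.20% of all genes. Both lie among the 50 at or above the median intensity, where the share was 4%, near the 3.40% of all genes there.

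**Figure D2:**
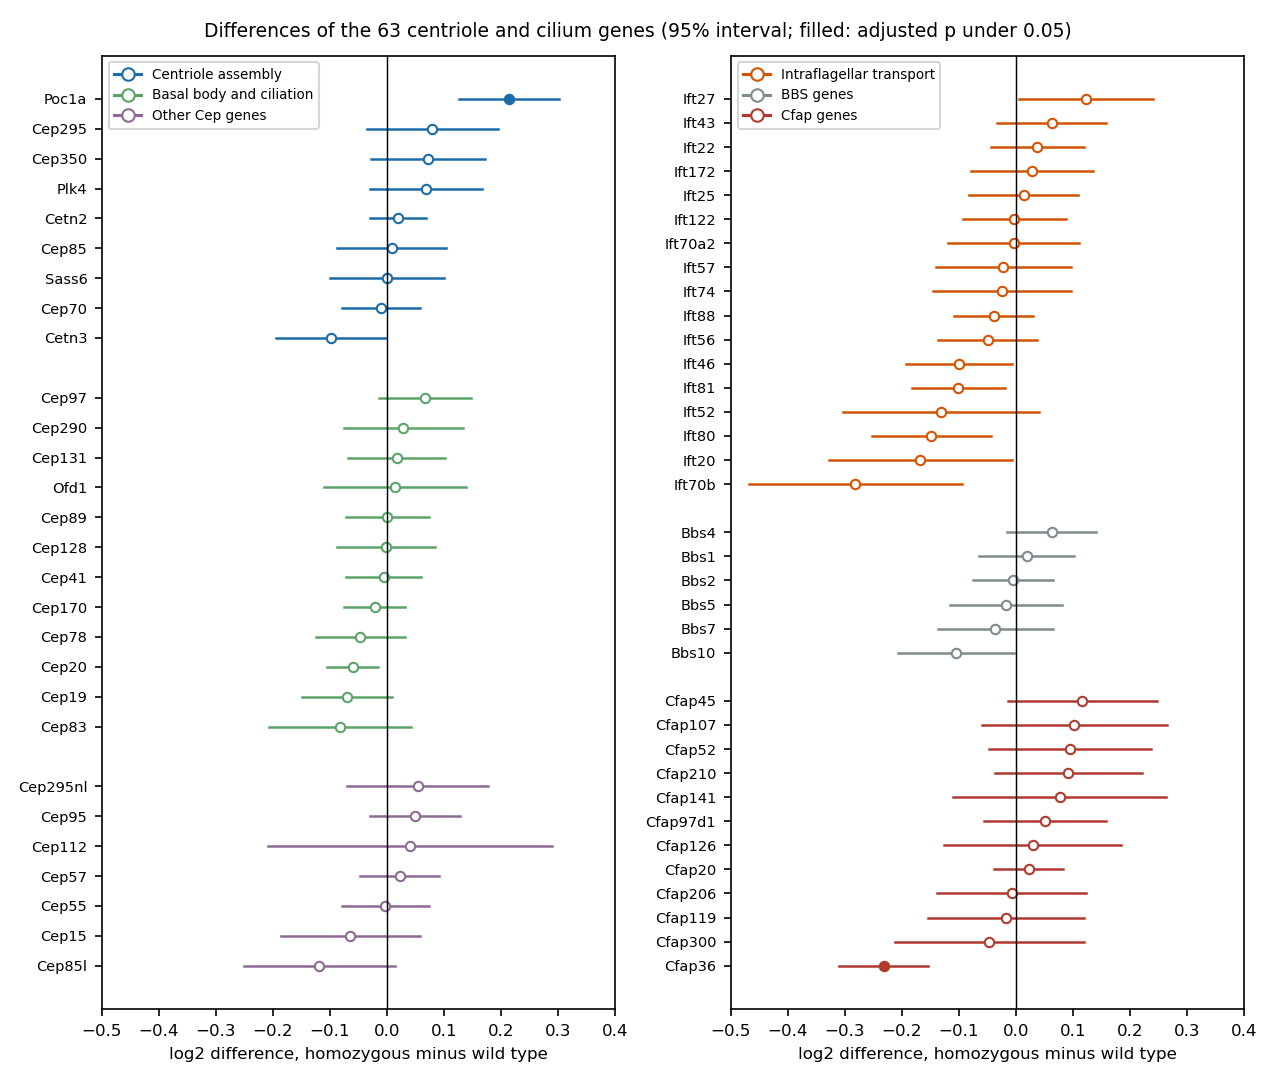
Log2 difference, homozygous minus wild type, of each of the 63 genes with its 95% interval (horizontal axis), grouped by role, with filled points for an adjusted p under 0.05. Poc1a at 0.22 and Cfap36 at -0.23 are filled, and 51 points lie within 0.1 of 0.

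Of the 9 genes that assemble centrioles, Poc1a rose and the other 8 did not pass the test. The median difference of the 9 was 0.02, with 6 above 0. Poc1a, a WD-repeat protein of the centriole wall that keeps centrioles intact, had a lowest, median and highest value of 9.39, 9.46 and 9.50 in homozygous arrays, against 9.09, 9.27 and 9.31 in wild-type arrays. Every homozygous array lay above every wild-type array. The means were 9.45 ± 0.0458 in homozygous and 9.24 ± 0.0850 in wild-type embryos (SD, n = 6 each), a difference of 0.22 ± 0.0409 (SE; 95% interval 0.13 to 0.30) or 1.16-fold, with an adjusted p of 0.0408 in limma. The call was close to the threshold. It was lost when arrays were centred on their medians (0.18, adjusted p = 0.0822), and it held in 9 of 24 other settings, over which the difference ran from 0.18 to 0.23 and the adjusted p from 0.0221 to 0.0996. When single arrays were left out, the call held without wild type 2 or wild type 3 and was lost without any of the other 10, with adjusted p-values between 0.0340 and 0.0996.

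Cetn3, a centrin that binds calcium in the centriole lumen, had 10.72, 10.73 and 10.78 as lowest, median and highest value in homozygous arrays, against 10.68, 10.87 and 10.96 in wild-type arrays. The homozygous arrays were tightly grouped, while the wild-type arrays split into wild type 1 and 2 below them, at 10.71 and 10.68, and the other 4 above them. Over all 12 arrays the difference was -0.10 ± 0.0450 (SE) with an adjusted p of 0.323 in limma. Without wild type 1 and 2 it was -0.17, with an adjusted p of 0.0108, and this was the single other setting of 24 in which Cetn3 was called, with adjusted p-values of up to 0.476 among them. The related centrin Cetn2, on the X chromosome, differed by 0.02.

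Plk4, the kinase that starts centriole copying, had 10.63, 10.66 and 10.70 in homozygous arrays, against 10.41, 10.62 and 10.72 in wild-type arrays, and here too wild type 1 and 2 were the lowest of all 12. Its difference of 0.07 became 0.0012 without these arrays, and neither value passed the test. Sass6, the cartwheel protein laid down after Plk4, differed by -0.00017, and by 0.07 without these arrays, where wild type 1 and 2 were the 2 highest. Cep295, which turns a new centriole into a centrosome, differed by 0.08, Cep350 by 0.07, and Cep85, which acts early in centriole copying, by 0.01. The 7 measured markers of dividing cells averaged 11.27 to 11.32 in homozygous arrays and 11.20 to 11.33 in wild-type arrays, with a median difference of -0.01. Of the 7, 3 were above 0 and 4 below, and none passed the test. Mcm2 at 0.12 and Cdk1 at 0.07 had an unadjusted p under 0.05 (28.6%, against 9.18% of all genes higher). Wild type 1 and 2 were the 2 lowest arrays in 3 of the 7 (42.9%), against 9.75% of all genes. The part of dividing cells in the centriole values was not tested.

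None of the 12 genes of the basal body and of cilium start passed the test, and all 12 differences over the 12 arrays were smaller than 0.1. Cep20, which promotes cilium formation at the basal body, had the tightest values of the group. Its lowest, median and highest values were 11.51, 11.52 and 11.56 in homozygous arrays, against 11.55, 11.58 and 11.62 in wild-type arrays, a difference of -0.06 ± 0.0206 (SE, adjusted p = 0.205 in limma). The 2 ranges met only at their edges. Cep83, which anchors the distal appendages that dock the basal body, differed by -0.08, and by -0.13 without wild type 1 and 2 (adjusted p = 0.327 in limma). Cep19, which recruits IFT proteins to the basal body, differed by -0.07. Cep97, which caps centrioles and holds back the cilium, differed by 0.07. Cep290 of the transition zone, the satellite protein Cep131, X-linked Ofd1 and the appendage proteins Cep89, Cep128 and Cep170 lay between -0.02 and 0.03. Of these, Ofd1 came to 0.09 without wild type 1 and 2.

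The 7 remaining Cep genes held no call, with a median difference of 0.02. Cep55, which acts in the last cut between daughter cells, differed by -0.0030, the dim Cep295nl by 0.05, and Cep85l by -0.12 ± 0.0618 (SE, adjusted p = 0.380 in limma). Cep15 differed by -0.06, and by 0.02 without wild type 1 and 2. Cep112 had the largest SD within groups of the 63 genes, at 0.234. Its brighter probe set read 8.57 and 8.59 in homozygous 4 and 6 and 8.47 and 8.46 in wild type 2 and 3, and between 8.86 and 9.04 in the other 8 arrays. The dimmer set was lowest in the same 4 arrays, at 6.95 and 7.12 in the homozygous pair and 7.07 and 7.05 in the wild-type pair, against 7.26 to 7.45 in the others. Both probe sets therefore parted the embryos into the same 4 and 8, with both genotypes on each side. The differences by genotype were 0.04 ± 0.116 and 0.00 ± 0.0876 (SE), and that of the brighter set was -0.03 without wild type 1 and 2.

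**Figure D3:**
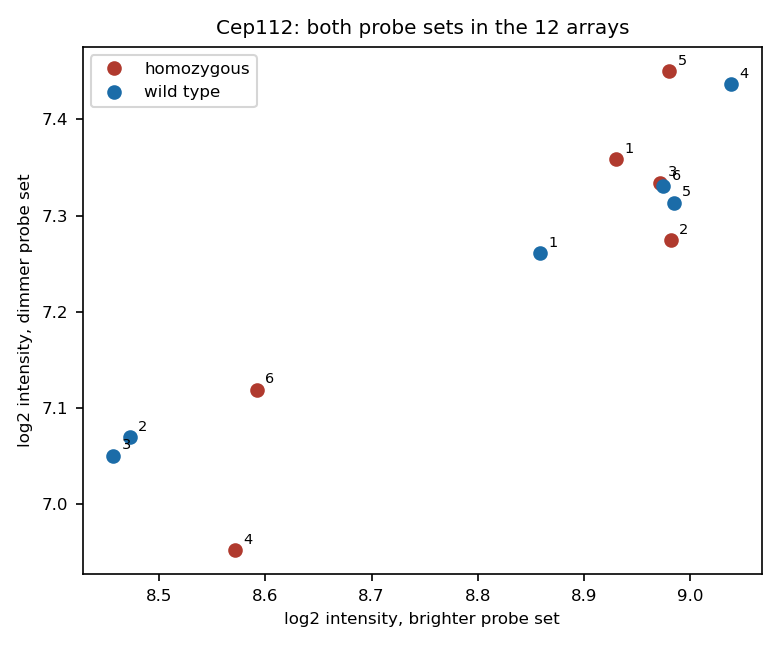
Log2 intensity of Cep112 by its brighter probe set (horizontal axis) and its dimmer probe set (vertical axis) in the 6 homozygous and 6 wild-type arrays, numbered by replicate. Homozygous 4 and 6 and wild type 2 and 3 lie at the lower left, at 8.46 to 8.59 on the horizontal axis, and the other 8 arrays lie at the upper right.

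Among the IFT genes, more values were lower than higher in homozygous embryos, but none passed the test. Of the 15 IFT-B genes of the set, all named with the Ift prefix, 11 differences were below 0 and 4 above, with a median of -0.04. At an unadjusted p under 0.05, 5 were lower (33.3%) and 1 was higher, against 5.93% and 9.18% of all genes. Among all genes at or above the median intensity, where 13 of the 15 lay, the shares were 9.31% lower and 9.72% higher. The 2 IFT-A genes of the set, Ift122 and Ift43, differed by -0.0022 and 0.06. Subunits named without the Ift prefix are not in these counts. Of those in the partner list below, Wdr35, Cluap1 and Traf3ip1 differed by -0.05, 0.06 and -0.02.

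Ift70b, which binds the IFT-B core, had 8.47, 8.66 and 8.84 as lowest, median and highest value in homozygous arrays, against 8.73, 8.88 and 9.18 in wild-type arrays. Its difference of -0.28 ± 0.0872 (SE; 95% interval -0.47 to -0.09) was the largest in size of the 63, and its adjusted p was 0.164 in limma. Wild type 1 and 2 were the 2 highest arrays, and without them the difference was -0.16. The copy Ift70a2 had 6.62 to 6.83 in homozygous arrays and 6.62 to 6.84 in wild-type arrays, had a mean at percentile 33.6 of all probe sets and differed by -0.0038 between the genotypes. Array probes of such copies can read each other's RNA, so their split is uncertain.

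Ift80, a peripheral IFT-B subunit needed for Hedgehog signalling in the mouse, had 8.85, 8.97 and 9.02 in homozygous arrays, against 9.01, 9.09 and 9.27 in wild-type arrays. The difference was -0.15 ± 0.0484 (SE, adjusted p = 0.185 in limma). It did not rest on wild type 1 and 2, since without them it was -0.19 with an adjusted p of 0.0815. Over all 24 other settings the adjusted p ran from 0.0815 to 0.362.

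Ift20, which brings cargo from the Golgi to the cilium, had 11.23, 11.27 and 11.42 in homozygous arrays, against 11.29, 11.39 and 11.81 in wild-type arrays, a difference of -0.17. The top of the wild-type range was again wild type 1 and 2, and without them the difference was -0.05. Ift52 of the IFT-B core had 10.52, 10.55 and 10.57 in homozygous arrays, against 10.37, 10.62 and 10.99 in wild-type arrays. Its difference of -0.13 came to 0.00048 without wild type 1 and 2. Ift46 and Ift81, a core subunit and the tubulin-binding partner of Ift74, each differed by -0.10, and by -0.05 and -0.07 without these arrays. Ift74 and Ift172 moved the other way. Ift74 differed by -0.02, and by -0.11 without wild type 1 and 2 (adjusted p = 0.167 in limma), and Ift172 by 0.03, and by -0.05 without them. Ift57 differed by -0.02, and by 0.06 without them. Over the 15 IFT-B genes, the median without these arrays was -0.05, with 9 below 0 and 6 above, and 3 were lower and 0 higher at an unadjusted p under 0.05, namely Ift70b, Ift80 and Ift74.

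Wild type 1 and 2 were the 2 highest of the 12 arrays in 6 of the 15 IFT-B genes (40%), against 13.4% of all genes, and the 2 lowest in 2. The share went with intensity. It was 21.1% of all genes at or above the median intensity, where 13 of the 15 lay, and 2.36% of those below. Of the 5 IFT-B genes that were lower at an unadjusted p under 0.05, 4 had this pattern. Over all 63 genes they were the 2 highest in 10 and the 2 lowest in 6, against 13.4% and 9.75% of all genes. Of the 8 measured markers of postmitotic neurons, 7 were below 0 and 1 above (12.5%, against 61.4% of all genes above 0). Their median was -0.05, with averages of 11.31 to 11.46 in homozygous arrays against 11.44 to 11.55 in wild-type arrays. Nefl passed the test (12.5%, against 0.469% of all genes). The groups did not overlap in 2, Nefl and Nefm (25%, against 2.20% of all genes). At an unadjusted p under 0.05 in limma, 3 were lower (37.5%) and 1 higher (12.5%), against 5.93% and 9.18% of all genes. All 3 measured markers of pallial neurons were below 0 (0% above, against 61.4% of all genes), with a median of -0.25. They averaged 9.13 to 9.35 in homozygous arrays and 9.23 to 9.86 in wild-type arrays. None passed the adjusted test, but all 3 were lower at an unadjusted p under 0.05 in limma (100%, against 5.93% of all genes). Of the 8 radial glia markers, 4 were below 0 and 4 above, and none passed the adjusted test. Fabp7 at -0.41, Slc1a3 at -0.16 and Hes1 at -0.12 were lower at an unadjusted p under 0.05 in limma (37.5%, against 5.93% of all genes). At the same threshold, Hes5 at 0.15 was higher (12.5%, against 9.18% of all genes). The radial glia list averaged 10.91 to 10.997 in homozygous arrays and 10.96 to 11.09 in wild-type arrays. The part of these cell types in the IFT values was not tested. The IFT-B gene that was higher, Ift27, a small GTPase needed for the BBSome to leave the cilium, had 9.57, 9.69 and 9.76 in homozygous arrays and 9.40, 9.60 and 9.71 in wild-type arrays. Its difference was 0.12 ± 0.0552 (SE, adjusted p = 0.311 in limma), and its partner Ift25 differed by 0.01.

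**Figure D4:**
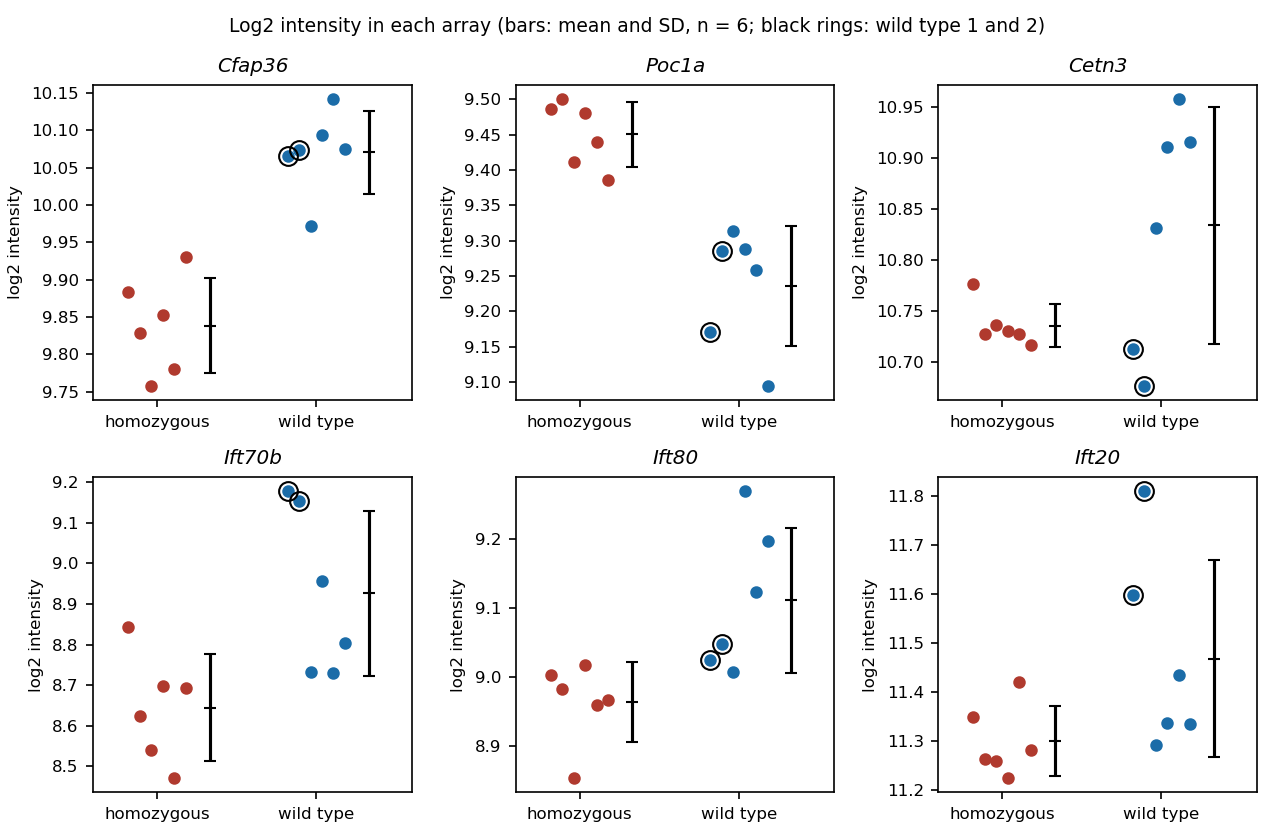
Log2 intensity of Cfap36, Poc1a, Cetn3, Ift70b, Ift80 and Ift20 in each of the 6 homozygous and 6 wild-type arrays, with the mean and SD of each group beside the points and black rings on wild type 1 and 2. The groups do not overlap for Cfap36 and Poc1a, whereas the ringed arrays are the lowest for Cetn3 and the highest for Ift70b and Ift20.

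None of the 6 Bbs genes passed the test. The BBSome subunits Bbs1, Bbs2, Bbs4, Bbs5 and Bbs7 differed by 0.02, -0.0051, 0.06, -0.02 and -0.04, and Bbs2 by -0.05 without wild type 1 and 2. Bbs10, a chaperonin-like protein that helps the BBSome to assemble, had 8.59, 8.71 and 8.76 in homozygous arrays, against 8.66, 8.79 and 8.90 in wild-type arrays. Its difference was -0.10 ± 0.0473 (SE, adjusted p = 0.317 in limma), and the groups overlapped.

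Of the 12 Cfap genes, Cfap36 fell and the other 11 did not pass the test. Cfap36, a binding partner of the ciliary GTPase Arl3, had 9.76, 9.84 and 9.93 as lowest, median and highest value in homozygous arrays, against 9.97, 10.07 and 10.14 in wild-type arrays. All 6 homozygous arrays lay below all 6 wild-type arrays. The means were 9.84 ± 0.0640 in homozygous and 10.07 ± 0.0558 in wild-type embryos (SD, n = 6 each). The difference was -0.23 ± 0.0365 (SE; 95% interval -0.31 to -0.15), with an adjusted p of 0.0273 in limma, and on the linear scale the intensity fell by 14.8%. Without wild type 1 and 2 it was again -0.23, with an adjusted p of 0.0168. The call held in 13 of 24 other settings, over which the difference ran from -0.27 to -0.22 and the adjusted p from 0.00881 to 0.0791. When single arrays were left out, it held without homozygous 6 or wild type 1, 2 or 3 and was lost without any of the other 8, with adjusted p-values between 0.0232 and 0.0791.

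Most other Cfap genes were dim. Of the 12, 8 had a mean below the median of all probe sets. The difference was above 0 in 6 of these 8, with a median of 0.07, and none passed the test. All genes below that median had a median difference of 0.05 with 76.1% above 0, while genes at or above it had a median of 0.00. The largest values among the 8 were 0.12 for Cfap45 and 0.10 for Cfap107, followed by Cfap52 and Cfap210, all 4 of which are proteins inside the axonemal microtubules. Their 95% intervals all included 0, as did that of Cfap97d1 at 0.05. Cfap20, above that median, differed by 0.02 and Cfap300, which helps to assemble dynein arms, by -0.05, and by 0.04 without wild type 1 and 2. Without these arrays Cfap45 came to 0.07, Cfap52 to 0.05 and Cfap141 to 0.16, against 0.12, 0.10 and 0.08 over all 12 arrays.

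**Figure D5:**
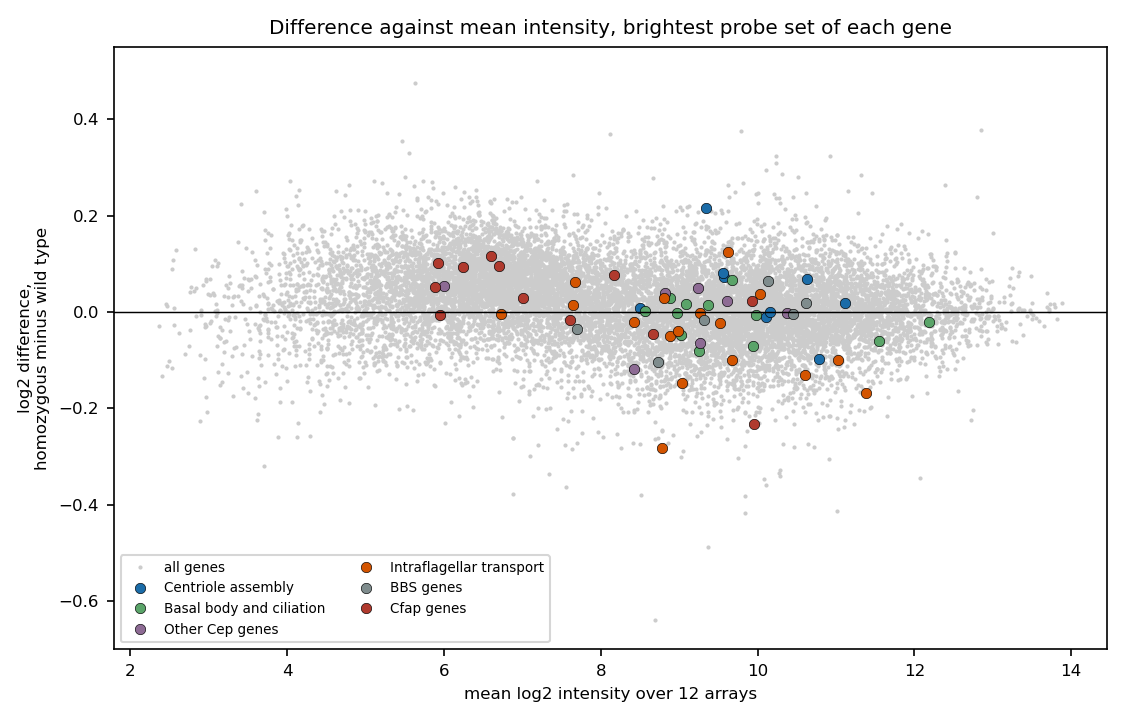
Log2 difference, homozygous minus wild type (vertical axis), against mean log2 intensity over the 12 arrays (horizontal axis) for the brightest probe set of every gene (grey) and for the 63 genes coloured by role. Dim Cfap genes lie mostly above 0, as do 76.1% of all genes below the median intensity, and Cfap36 and Ift70b are the lowest coloured points.

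Cilium genes without these name prefixes were read from 4 lists of 94 genes, of which 63 were measured. In all, 1 rose, none fell and 62 did not pass (limma, 1.59% called, against 0.424% of all probe sets and 0.469% of all genes). The transition zone list, the gate at the cilium base, had 13 of 20 measured with a median of -0.01. Its smallest unadjusted p-values were those of B9d1 at 0.08 and Iqcb1 at -0.07. The 18 of 24 measured genes of pericentriolar material and satellites had a median of 0.01, with Ccp110 at -0.06 and Wdr62 at 0.09, and the 15 of 25 measured partners of IFT and the BBSome one of -0.02. Among these partners, Arl6, the GTPase that recruits the BBSome to membranes, had 9.48, 9.63 and 9.70 in homozygous arrays, against 9.64, 9.79 and 9.88 in wild-type arrays, a difference of -0.16 ± 0.0460 (SE, adjusted p = 0.143 in limma). Mkks, a chaperonin-like protein like Bbs10, differed by -0.14 (adjusted p = 0.199 in limma).

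In the list of motile cilia genes, 17 of 25 were measured, 13 were above 0 and the median was 0.05, against 0.05 over all genes below the median intensity. Wild type 1 and 2 were the 2 lowest of the 12 arrays in 5 of the 17 (29.4%, against 9.75% of all genes). They were the 2 highest in 1 (5.88%, against 13.4% of all genes). Rsph9, a protein of the radial spoke head, rose. It had 7.59, 7.63 and 7.71 in homozygous arrays, against 7.33, 7.43 and 7.51 in wild-type arrays, with no overlap and a difference of 0.22 ± 0.0416 (SE, adjusted p = 0.0408 in limma). Under quantile normalization this became 0.18 with an adjusted p of 0.0628, and over 24 other settings the adjusted p ran from 0.0227 to 0.1001. Of the single arrays left out, the call held only without wild type 3. Wild type 1 and 2 were the 2 lowest arrays of Rsph9, at 7.37 and 7.33, and without both of them it was still called. Ccdc40, which sets the spacing of the axonemal arms, differed by 0.17 ± 0.0351 (SE), also without overlap, with an adjusted p of 0.0516 in limma. Wild type 1 and 2 were its 2 lowest arrays too, at 8.69 and 8.65, and it was not called without them either. Of the 17 genes, 2 did not overlap (11.8%, against 2.20% of all genes) and 1 was called (5.88%, against 0.469% of all genes). The spoke protein Rsph1 and the dynein chain Dnai1 differed by 0.18 and 0.14, with adjusted p-values of 0.216 and 0.223 in limma. At an unadjusted p under 0.05, these 4 genes were higher (23.5%, against 9.18% of all genes) and none was lower (0%, against 5.93%). The RFX factors Rfx2 and Rfx3 of this list differed by 0.05 and 0.04, and Foxj1, the main switch of motile cilia, by 0.07. All 6 measured choroid plexus markers were above 0, with a median of 0.06 and 0.17 for Ttr, and none passed the test. All 6 lay below the median intensity, where 76.1% of all genes were above 0 with a median of 0.05. Their part in the motile cilia values was not tested.

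Differences were also read by the presence of an X-box match. The 10 genes with a match had a median of -0.02, with 0 calls and 1 unadjusted p under 0.05 (10%), that of Ift70b. The 45 with a promoter and no match had a median of 0.00, with 2 calls (4.44%) and 8 unadjusted p-values under 0.05 (17.8%). Over all genes, 0.469% were called and 15.1% had an unadjusted p under 0.05.

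Some of these genes start close to a neighbour. A gene on the opposite strand started within 1000 bases upstream of 16 of the 55 (29.1%), against 1533 of 11951 genes on the array (12.8%). The closest measured pairs were Ofd1 with Trappc2 at 87 bases and Cep19 with Pigx at 93 bases. Ift20 started 167 bases from Tnfaip1, and the difference was -0.17 for Ift20 and 0.05 for Tnfaip1. Cfap210 started 152 bases from Phospho2, and the difference was 0.09 for Cfap210 and -0.16 for Phospho2. Neither gene of these 2 pairs passed the test in limma.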

How the data were processed

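Per the labels' protocols, meninges were removed and the tissue of each embryo was stored in RNAlater before extraction (RNeasy Mini Kit) and biotin labelling (Ambion WT Expression Kit). What the authors deposited is a table of log2 intensities with a value for every probe set in every array, a scale read from the values themselves. Partek 6.4 and RMA are named in the submitters' processing notes, with no settings. RMA usually evens out arrays, and a shift shared by every gene can then be lost, and short probes compress large differences. Depth does not apply, and the number of arrays limited precision.

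The platform annotation gave 1 gene for 15310 of 29214 probe sets, several for 323 and none for 13581. All 63 genes matched the RefSeq table of GRCr8 by Entrez number under the same symbol. The build of the array design is not given in the sources used here, so GRCr8 coordinates are those of the RefSeq promoters only. Genotype was the only factor in limma (version 3.58.1, R 4.3.3), with eBayes moderating the variance along an intensity trend. Tests were 2-sided at 0.05, and p-values were adjusted by Benjamini and Hochberg's method across the 29214 probe sets. The script was tested on simulated data. Each embryo is 1 sample, and shared dams were not modelled. Other settings were other scalings, no dim probe sets, other ways to treat probe sets, no trend, array weights, a replicate block, 2 covariates and leaving out each array, and, chosen after seeing the data, leaving out wild type 1 and 2 together.

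The genes, roles, lists and settings were chosen with earlier results of these data known. Named by rule were the genes called, the 12 with the smallest p in each direction, the brightest and dimmest of each role, at most 2 per pathway or marker list and Htt. Other genes were named after their values were seen, for an X-box match, a shared promoter or their role. Some older list names (Hspb11, Rabl5, Ttc26, Ttc30b, Azi1) are Ift25, Ift22, Ift56, Ift70b and Cep131 under current names, and count as not measured in the lists. Matplotlib 3.10.9 under Python 3.11.15 drew the figures.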

Additional observations from a re-analysis of the deposited data

Results flagged for a closer look

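An array was singled out where its gap to the nearest array of its group was large against the range of that group (Dixon's test at 95%). Of 130 groups of 6 examined, 11 held such an array, and chance alone gives about 5%. In homozygous embryos these were Cetn3 in homozygous 1 at 10.7768, Cep55 in homozygous 3 at 10.2844, Cep70 in homozygous 4 at 10.1984, Ift80 in homozygous 3 at 8.85264 and Cfap126 in homozygous 3 at 7.2223. In wild-type embryos, wild type 2 was singled out in 4 genes, with 9.12489 for Cep83, 8.84905 for Cep128, 9.04528 for Ift56 and 7.55771 for Ift43. The other two were Cep95 in wild type 4 at 9.34066 and Cfap126 in wild type 3 at 7.29548. None of the 10 genes passed the test over all 12 arrays.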

How the results depend on the processing

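Of the 63 genes, 2 were called in the main analysis. The count was 1 with arrays centred on their medians (Cfap36), 0 without the intensity trend, 0 with the replicate block, 1 with Eif2s3 as a covariate (Cfap36) and 0 with each array's dim minus bright level as a covariate. It lay between 0 and 2 when single arrays were left out, and was 3 without wild type 1 and 2, where Cetn3 joined at -0.17. Over all probe sets, the calls numbered 124 in the main analysis, 302 with centred arrays, 3 without the trend, 414 with array weights, 18 with the replicate block, 29 and 33 with the covariates and 582 without wild type 1 and 2. When single arrays were left out they numbered 4 to 200, and under 100 in 11 of 12 cases. The share of probe sets called, 0.424% here, therefore depends on which arrays are kept. For the 4 lists the count of 1 became 0 under quantile normalization, cyclic loess, no trend, the replicate block, Eif2s3 and the dim and bright covariate, 2 with dim probe sets left out, only sets of 1 gene, the mean of all sets or array weights, and 0 to 1 when single arrays were left out. Same-numbered arrays correlated at -0.08 to 0.26 in their deviations, with 2 of 6 over 0.1, and 1 of 6 homozygous arrays correlated best with its own number, so the numbers were not taken as pairs.

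The 34 genes named by rule were followed through all settings, and their reversed differences were uncalled in both fits. Without wild type 1 and 2, all 63 were compared and 16 changed sign, with differences of at most 0.13 in size in either fit. With centred arrays, Cep89 came to -0.037, Bbs1 to -0.018, Cetn2 to -0.019 and Cep85 to -0.029. Under quantile normalization, Cep89 came to -0.011, Cep85 to -0.0061, Cfap97d1 to -0.0019, Cep55 to 0.0021 and Cep295nl to -0.00037. Under cyclic loess, Cep89 came to -0.017, Cep85 to -0.011, Cfap97d1 to -0.0037 and Cep295nl to -0.0026. With array weights, Cep89 came to -0.0075, Cep85 to -0.025, Ift70a2 to 0.0052 and Cep55 to 0.0092. With the dim and bright covariate, Cep89 came to -0.0039, Cep85 to -0.0034, Ift70a2 to 0.043 and Cep55 to 0.025. Without wild type 1 and 2, Ift52 came to 0.00048, Cep89 to -0.012, Cep85 to -0.035, Ift70a2 to 0.044 and Cep55 to 0.028. Leaving out single arrays gave -0.014 to 0.013 for Cep89, -0.0021 to 0.041 for Bbs1, -0.021 to 0.033 for Cep85, -0.026 to 0.017 for Ift70a2 and -0.028 to 0.015 for Cep55. The cause was not tested. With 6 embryos a group, the median SE over the 63 genes was 0.0459. Differences near 0.1 then lie about at an unadjusted p of 0.05 in limma. The adjusted test took larger ones. Poc1a at 0.22 passed narrowly, while Ift70b at -0.28 and Ift80 at -0.15 did not pass. A gene that did not pass may therefore differ by more than 0.1.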
